A study of Mus musculus with 16 samples.

Results

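The peaks described here are the weak, gene-end peaks of the transcription factor Miz1 that appear in the peak list of the 70Z/3 cell line and not in that of the P6D4 line. A peak was taken if its pileup, the number of overlapping tags at its highest point, was under 25, if its summit lay within 5 kb of either end of a protein-coding gene of the mouse GRCm38.p6 (mm10) annotation, and if it shared no base with a P6D4 peak. Chromosome 15 was left out. This gave 804 of the 10462 peaks of the 70Z/3 list, and the nearest gene ends belonged to 727 genes. These peaks were chosen by measured values, namely pileup, gene-end distance and absence from the P6D4 list, so those measures are described without a test. RNA was not used in the choice.

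70Z/3 is a mouse lymphoblast line at the pre-B stage. P6D4 is a mouse line derived from SCID.adh thymic lymphoma cells and is labelled DN3, a stage of CD4-negative, CD8-negative thymocytes. The labels give no treatment and no engineered allele for the samples used. Each line had 1 Miz1 ChIP-seq library, made with a rabbit antibody (H-190, Santa Cruz Biotechnology), and 3 RNA-seq libraries. Per the study's design text, each ChIP came once from a single lysate preparation and shared that lysate's input control. Each lineage is represented by 1 cell line, so lineage and line cannot be told apart. The labels do not say whether the RNA replicates were separate cultures, so p-values measure the spread between libraries, which may be technical. Of the 16 samples of the series, the histone mark and input libraries were not analysed here.

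Miz1, encoded by Zbtb17, is a BTB/POZ zinc finger protein that binds near transcription start sites. It activates some genes on its own and represses others when partnered with Myc, the cell-cycle inhibitors being the textbook case. In mice it is required for early B and T lymphocyte development. Zbtb17 RNA stood at 41.3, 40.6 and 41.5 CPM (counts scaled to the size of the library) in the 70Z/3 libraries, against 44.4, 46.0 and 45.7 CPM in the P6D4 libraries. The values of the lines did not overlap, and the log2 fold change, 70Z/3 over P6D4, was -0.14 (edgeR adjusted p = 0.00426).

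The RNA libraries held 45481949 to 48885150 counts in genes in 70Z/3 and 48255176 to 54815145 in P6D4. The line labels of the RNA held: 12 of 12 pre-B markers were higher in 70Z/3, with summed levels of 4031 to 4162 CPM in 70Z/3 and 10.7 to 14.3 CPM in P6D4. Conversely, 12 of 12 thymocyte markers were lower in 70Z/3, with sums of 55.1 to 56.0 CPM in 70Z/3 and 3855 to 3930 CPM in P6D4. The ChIP libraries were uneven in depth. Per the headers of the peak lists, 4484034 of 30865119 tags (14.5%) remained after duplicate filtering in 70Z/3, against 2067731 of 60841509 (3.40%) in P6D4. Control depth was 99843312 tags for 70Z/3 and 30360266 for P6D4. The shallower P6D4 library nevertheless gave the longer list, with 10462 peaks in the 70Z/3 list and 21629 in the P6D4 list. Absence from the P6D4 list is therefore absence of a call at that depth, not absence of binding. On chromosomes 10 and 15, where the median RNA was lower in 70Z/3, the ratio of 70Z/3 to P6D4 peaks was highest, as given below. Peaks at the line markers are also given below, and no conclusion is drawn from them. The counts of called genes over all these peaks are given with and without chromosome 10. Were the line labels of the ChIP libraries exchanged, each statement that sets a peak list beside the RNA of its line would be turned round. Whether they were exchanged was not tested.

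The peaks described here had a median rank of 6552.5 among the 10462 peaks of their own list. Their fold enrichments over control, as the authors' peak caller gave them, ran from 3.67 to 14.9 with a median of 6.67, and their pileups from 6 to 24 with a median of 10. The depositors sorted the list by q value and typed 11 remarks into it. The last, at rank 407 (pileup 26), spoke poorly of the peaks reached by then, and 802 of the 804 peaks described here ranked after it. That position follows largely from the pileup limit and is shared by most of the list. Of all 10462 peaks, 10007 had a pileup under 25. The gene-end peaks of pileup 25 or more in the same list, 170 in number, had a median fold of 39.6. At the pileup limit, the peaks at Zfp324 and Mettl21e stood just inside at 24, while those at Gm40365, Vmn1r2 and Ikzf2 stood just outside at 25. At the distance limit, the summits at Dync1i1 (4991 bp), Gm6958 (4989 bp) and 3110040M04Rik (4987 bp) were just inside, and those at Fer1l4 (5005 bp), Aadacl2fm1 (5030 bp) and Klhdc7a (5034 bp) just outside. A P6D4 peak without shared bases lay within 500 bp of 24 of the 804.

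The sequences below are 6 promoters in which the summit itself fell inside the annotated window, taken from genes with the highest folds or from the gene classes described further on. Each window runs from 250 bases before to 50 bases after a RefSeq transcription start in GRCm38.p6 and is written 5′ to 3′ on the gene's strand. Capitals mark, on either strand, GGGCGG (the GC box read by Sp family factors), CCAAT (read by NF-Y) and CCGGAAG (read by Ets factors). The windows are chr16:57231417-57231716 on the minus strand for Tbc1d23, chr4:137862030-137862329 on the plus strand for Ece1 and chr4:155624604-155624903 on the plus strand for Cdk11b. Those of the other three are chr7:28050043-28050342 on the minus strand for Psmc4, chr10:76468652-76468951 on the plus strand for Mcm3ap and chr13:91223938-91224237 on the minus strand for Atg10.
Tbc1d23: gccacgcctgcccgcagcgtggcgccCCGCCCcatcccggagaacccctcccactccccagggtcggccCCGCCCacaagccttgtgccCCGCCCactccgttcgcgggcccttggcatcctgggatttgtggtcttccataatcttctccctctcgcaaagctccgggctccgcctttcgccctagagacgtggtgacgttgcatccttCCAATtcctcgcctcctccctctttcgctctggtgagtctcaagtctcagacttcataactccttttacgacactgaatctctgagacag
Ece1: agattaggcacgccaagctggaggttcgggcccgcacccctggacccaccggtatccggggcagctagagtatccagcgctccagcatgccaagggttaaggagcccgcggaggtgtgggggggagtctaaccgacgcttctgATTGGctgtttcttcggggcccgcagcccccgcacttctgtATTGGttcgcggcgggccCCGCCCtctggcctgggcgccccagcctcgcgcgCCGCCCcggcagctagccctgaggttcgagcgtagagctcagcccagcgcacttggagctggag
Cdk11b: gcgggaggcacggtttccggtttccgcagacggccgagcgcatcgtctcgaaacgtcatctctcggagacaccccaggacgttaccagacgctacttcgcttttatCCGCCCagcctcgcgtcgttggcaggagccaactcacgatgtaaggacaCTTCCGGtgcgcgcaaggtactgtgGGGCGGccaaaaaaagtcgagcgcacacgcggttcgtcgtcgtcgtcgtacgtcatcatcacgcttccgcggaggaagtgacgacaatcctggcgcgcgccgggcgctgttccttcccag
Psmc4: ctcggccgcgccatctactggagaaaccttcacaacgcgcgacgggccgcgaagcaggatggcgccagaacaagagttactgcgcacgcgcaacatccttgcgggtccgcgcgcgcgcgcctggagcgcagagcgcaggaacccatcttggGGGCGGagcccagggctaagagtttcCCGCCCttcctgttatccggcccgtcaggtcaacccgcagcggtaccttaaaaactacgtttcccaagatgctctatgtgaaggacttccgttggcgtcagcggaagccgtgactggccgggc
Mcm3ap: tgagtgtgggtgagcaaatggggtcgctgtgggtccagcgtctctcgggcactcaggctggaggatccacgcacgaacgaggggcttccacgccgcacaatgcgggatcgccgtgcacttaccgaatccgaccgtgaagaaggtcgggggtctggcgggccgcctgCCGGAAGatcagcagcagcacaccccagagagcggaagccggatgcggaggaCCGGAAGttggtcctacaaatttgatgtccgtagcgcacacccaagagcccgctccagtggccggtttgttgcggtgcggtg
Atg10: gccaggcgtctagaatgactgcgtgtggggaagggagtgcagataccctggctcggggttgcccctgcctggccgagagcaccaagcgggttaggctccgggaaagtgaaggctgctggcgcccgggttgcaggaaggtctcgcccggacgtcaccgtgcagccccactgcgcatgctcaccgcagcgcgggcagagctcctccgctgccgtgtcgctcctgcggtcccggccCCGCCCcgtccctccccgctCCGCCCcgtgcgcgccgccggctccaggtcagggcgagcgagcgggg
The summit fell at base 121 of the Tbc1d23 window, 274 of Ece1, 89 of Cdk11b, 130 of Psmc4, 237 of Mcm3ap and 140 of Atg10. The Ece1 window holds CCAAT and GC boxes close to its start site, the Mcm3ap window holds only the Ets word of those marked, and the Atg10 window holds only GC boxes.

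Across the promoters, the windows were rich in GC and held none of the Miz1 words searched. Of the 804 peaks, 242 lay within 1 kb of the 5′ end of the nearest gene, and these gave 240 distinct promoter windows, 60 of which held the summit. The Miz1 words ATCGGTAAT and ATCGAT, searched on both strands, occurred in 0 of the 240 and 0 of the 60. Among all 20737 windows of protein-coding genes, ATCGGTAAT occurred in 0.0289% and ATCGAT in 0.858%. At the 88 windows near 70Z/3 gene-end peaks of pileup 25 or more, ATCGAT occurred in 13 (14.8%) and ATCGGTAAT in 0. A missing word says only that these letters are not in this window.

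The GC box was present in 63.7% of the 240 windows and 68.3% of the 60 that held the summit, against 46.1% of all windows. CCGGAAG was present in 14.2% and 25%, against 11.5%. TGACGTCA, the cyclic-AMP response element, was present in 5.00% and 8.33%, against 2.25%. CCAAT (37.9% and 36.7%, against 38.2%) and the E-box CACGTG (7.08% and 8.33%, against 7.82%), the Myc/Max word, stood near their shares over all windows. The words do not contain one another. Median GC content was 62.0% and 64.0%, against 56.3% over all windows, and the median number of CG dinucleotides was 20 and 25, against 13. For the weak peaks found only in the P6D4 list, 36 such windows had a median GC content of 50.5%, and 30.6% of them held the GC box. The 88 windows near 70Z/3 gene-end peaks of pileup 25 or more were also GC-rich, with a median GC content of 60.3% and a median CG count of 23. Of those 88, 63.6% held the GC box and 22.7% CCGGAAG, so this richness is not particular to the weak peaks. These shares are descriptions, since base composition alone alters how often a GC-rich word occurs.

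The summits gathered just inside 5′ ends. Of the 804 summits, 359 lay within 1 kb of the gene end, a share of 44.7% (95% Clopper-Pearson interval 41.2 to 48.2%, counting error only), and the median distance was 1219.5 bp. The nearest end was a 5′ end for 446, a 3′ end for 259 and an end of a gene without an assigned strand for 99. Within 1 kb of a 5′ end, 176 summits lay inside the gene, 65 outside and 1 on the boundary. The inside share was 73.0% of 241 (67.0 to 78.5%), and the median summit lay 230 bp into the gene. The 500 bp just inside 5′ ends held 131 summits, the 500 bp just outside 55 and the next 500 bp inward 46. Of the 242 summits, 232 were within 1 kb of a listed start site, at a median of 152.5 bp downstream and with quartiles from 46.5 bp upstream to 342 bp downstream.

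**Figure D1:**
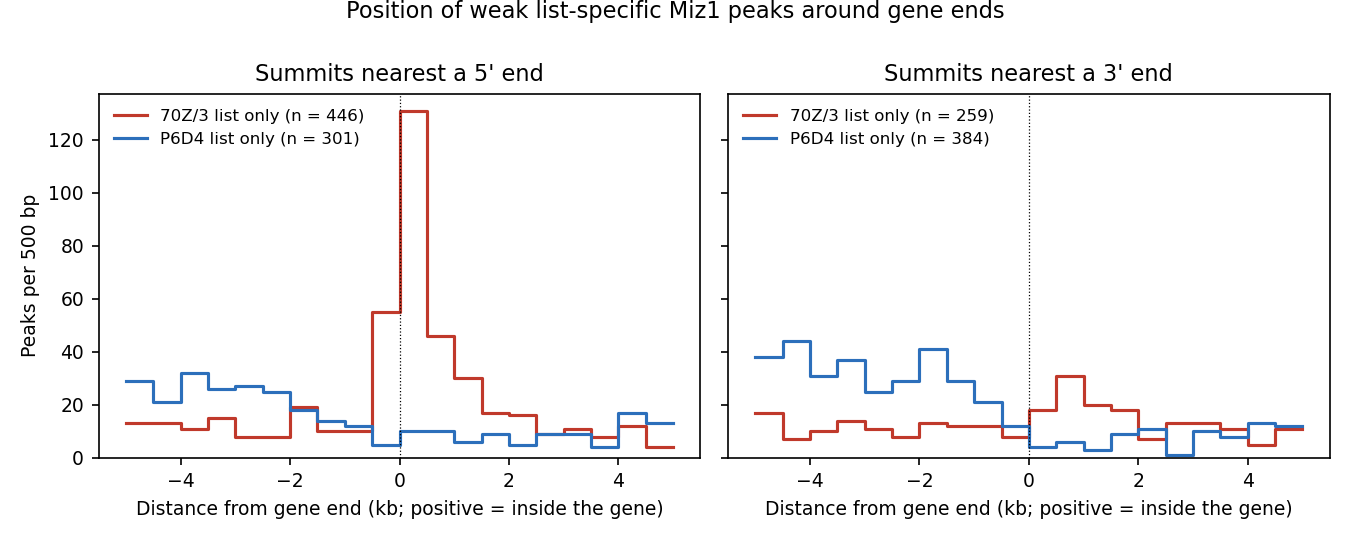
Numbers of weak list-specific Miz1 peaks in 500 bp steps around 5′ ends (left) and 3′ ends (right), for peaks only in the 70Z/3 list (red) and only in the P6D4 list (blue); positive distances are inside the gene. The 70Z/3 peaks reach 131 in the first step inside 5′ ends, while the P6D4 peaks show no rise there.

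At 3′ ends the excess was smaller. Within 1 kb of a 3′ end lay 69 of 259 summits, 49 of them inside the gene and 20 beyond it. The 845 weak gene-end peaks of the P6D4 list that shared no base with a 70Z/3 peak were placed otherwise: 12.1% (9.95 to 14.5%) were within 1 kb of the end, and 37 of their 301 5′-end summits were within 1 kb of it. The 176 weak 70Z/3 gene-end peaks that did overlap a P6D4 peak had 18.8% within 1 kb. The 170 peaks of pileup 25 or more had 70.0% within 1 kb, with 43 inside and 45 outside the gene near 5′ ends and a median of -2 bp, so they centred on the 5′ boundary itself. With 1 ChIP library per line, these differences have no replicate check. The same pileup limit of 25 was applied to libraries of unequal depth, so weak need not mean the same relative height in both lists.

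Some summits lay near several genes. Of the 804 peaks, 213 had ends of 2 or more genes within 5 kb, and 23 of the 255 peaks within 1 kb of any 5′ end were near 5′ ends on both strands. Of the genes, 670 had 1 peak, 40 had 2 peaks and 17 had 3 or more. Flg, which encodes the epidermal protein filaggrin and is a repeat-rich gene, had 5 within 3828 bp. Peaks of 1 gene share their surroundings and are not separate replicates of anything.

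Chromosome 10 carried the densest share. It held 107 of the 804 peaks (13.3%) against 4.74% of protein-coding genes, or 10.7 peaks per 100 genes. Chromosome 1 followed with 74 peaks (6.15 per 100 genes) and chromosome 5 with 63 (4.96 per 100 genes), and the X chromosome held 16. The megabase at 80 to 81 Mb of chromosome 10 alone held 19 peaks, at genes such as Gadd45b, a stress-response gene, Cirbp, a cold-inducible RNA-binding protein, and Mknk2, a kinase of the translation factor eIF4E. The next megabase held 15, among them Tle5, Gna11 and Zbtb7a. Of the weak gene-end peaks found only in the P6D4 list, chromosome 10 held 33 (3.91%). At 55 to 56 Mb of chromosome 8, 9 peaks lay at numbered predicted genes. At 88 to 89 Mb of chromosome 4, 7 lay at Ifna9 and neighbouring predicted genes. Such families of near-identical copies make the placement of tags uncertain.

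RNA differed by chromosome. On chromosome 10 the median log2 fold change of 592 tested genes was -0.48, and on the omitted chromosome 15 it was -0.94. The same chromosomes had the most 70Z/3 peaks relative to P6D4 peaks, with ratios of 0.678 on chromosome 10 and 1.15 on chromosome 15, against 0.367 to 0.596 on the others plotted. Not all chromosomes followed this order. Chromosome 11, with the next lowest median log2 fold change at -0.17, had a ratio of 0.411, and chromosomes 6 and 5, with medians of 0.55 and 0.37, had ratios of 0.502 and 0.486. Whether the line labels of the ChIP libraries, or the chromosome itself, had a part in the RNA values below was not tested.

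**Figure D2:**
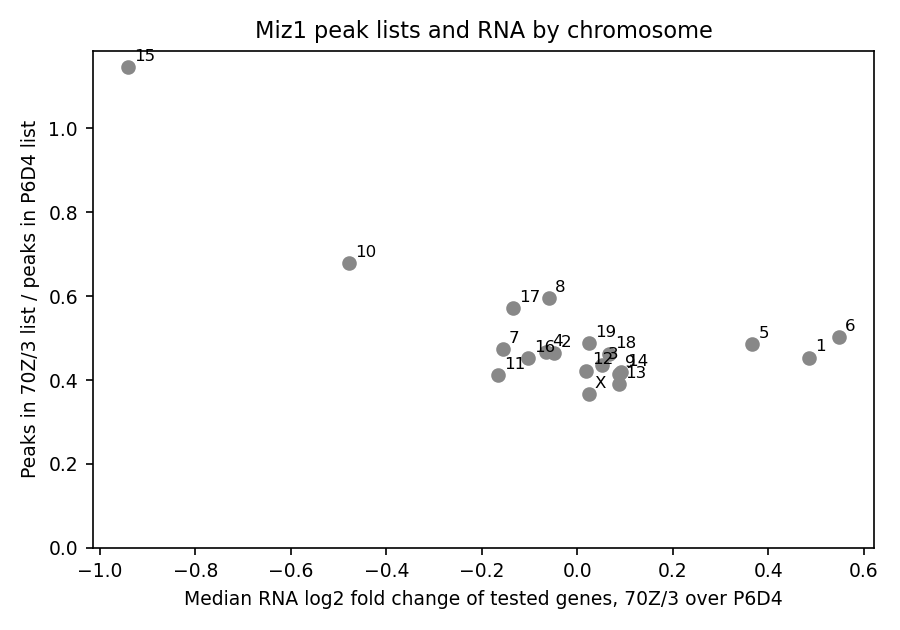
Each point is a chromosome; the horizontal axis is the median RNA log2 fold change, 70Z/3 over P6D4, and the vertical axis is the number of 70Z/3 peaks divided by the number of P6D4 peaks, over all peaks. Chromosomes 15 (-0.94, 1.15) and 10 (-0.48, 0.678) stand apart from the rest.

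Few line markers lay at these peaks. Notch3, Lat and Ptcra, 3 of the 12 thymocyte markers, had a peak described here, as did Elane among the myeloid markers. None of the 12 pre-B markers was the nearest gene of one. Over all protein-coding genes outside chromosome 15, 727 of 21111 were the nearest gene of such a peak. A count of 0 of 12 is therefore near the general share, and no difference between the marker lists was tested. Counting any peak over a marker gene or within 5 kb of it that only 1 list holds, 70Z/3-only peaks occurred at Ptcra, Lat and Notch3 and at 1 of 11 pre-B markers, Cd79a. P6D4-only peaks occurred at 0 of 11 thymocyte markers and at 3 of 11 pre-B markers (Ebf1, Blk and Blnk). No share of all protein-coding genes with such a peak is given beside these counts. The P6D4 list is the longer, and gene length was not taken into account, so no conclusion is drawn from them. This lookup was added after the values were seen, and the RNA at the markers runs in the direction of the line labels.

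In RNA, the genes at these peaks were detected in both lines more often than protein-coding genes at large. Detection here means at least 1 CPM in all 3 libraries of a line; CPM is not scaled to gene length. Of the 727 genes, 660 matched the count table, and 387 of them (58.6%, 54.8 to 62.4%) were detected in 70Z/3 and 395 (59.8%, 56.0 to 63.6%) in P6D4. Over all 19869 matched coding genes the shares were 48.8% in 70Z/3 and 47.4% in P6D4. Both lines detected 354 of the genes, 70Z/3 alone 33, P6D4 alone 41 and neither 232, and 108 had no count in any library.

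Detection was greatest at peaks close to 5′ ends. With the summit within 500 bp of the 5′ end, 72.6% of 168 genes were detected in 70Z/3 (65.2 to 79.2%) and 75% in P6D4 (67.7 to 81.3%). At 500 to 1000 bp the shares were 63.5% in 70Z/3 and 65.4% in P6D4, at 1000 to 2000 bp 50% in 70Z/3 and 56.9% in P6D4, and at 2000 to 5000 bp 55.1% in 70Z/3 and 54.1% in P6D4. For genes whose 3′ end was nearest, the shares ran from 41.2 to 49.5% in 70Z/3 and from 35.3 to 53.1% in P6D4 over the 4 distance steps. The intervals of the lines overlapped in every step. The same genes were scored in both lines, so this overlap does not measure the difference between the lines. Genes at the weak P6D4-only peaks were detected less widely, at 38.5% in 70Z/3 and 32.8% in P6D4, and those at the 170 strong peaks more widely, at 81.9% in 70Z/3 and 85.5% in P6D4.

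**Figure D3:**
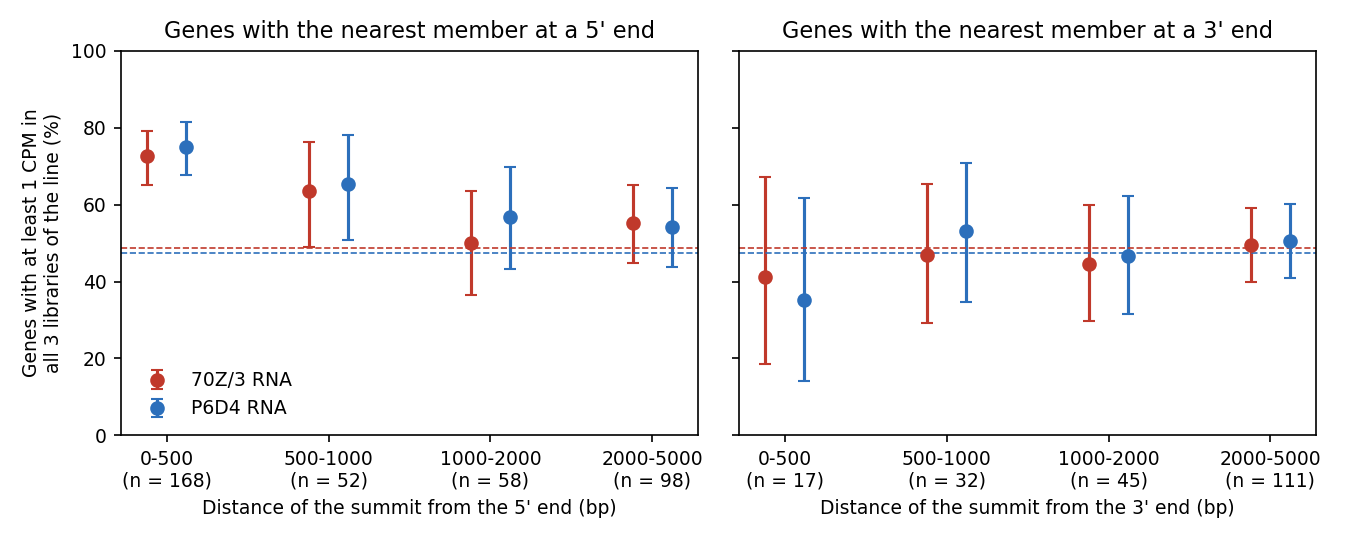
Share of genes at these peaks with at least 1 CPM in all 3 libraries of 70Z/3 (red) and P6D4 (blue), by distance of the summit from the nearest 5′ end (left) or 3′ end (right), with 95% Clopper-Pearson intervals; dashed lines are the shares over all coding genes. The shares are 72.6% and 75% within 500 bp of a 5′ end.

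The counts tested between lines came to 468 of the 660 genes after the filter on low counts. Of these, 186 (39.7%) were higher and 233 (49.8%) lower in 70Z/3 at an edgeR adjusted p under 0.05, where 43.2% of all 13750 genes tested were higher and 43.3% lower. Among the 11425 tested protein-coding genes outside chromosome 15, the closer reference, 45.3% were higher and 43.1% lower, and their median was 0.02 on the log2 scale. The remaining 49 did not pass. So many genes differ between the lines, 86.5% in all, that a difference at a gene with a peak is the usual state. Against a 2-fold difference (glmTreat), 84 were higher (17.9%) and 104 lower (22.2%), beside 18.6% and 16.6% of all genes tested. In the closer reference the 2-fold shares were 18.6% higher and 15.8% lower. Without chromosome 10, the genes at these peaks had 18.9% higher and 19.9% lower. The median log2 fold change was -0.13, against -0.01 over all genes tested. In bulk RNA, fewer expressing cells and less RNA per cell cannot be told apart.

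On chromosome 10, 52 of the 72 tested genes with a peak were lower in 70Z/3 and 15 higher, with a median log2 fold change of -0.59, where 65.5% of all 592 genes tested on that chromosome were lower and 28.4% higher. On chromosome 5 the balance was the opposite: 24 of 34 genes with a peak were higher and 5 lower, where 64.2% of its 737 tested genes were higher and 24.6% lower. Both balances ran in the same direction as those of their chromosomes, and whether they differed from them was not tested. Without chromosome 10, 171 of 396 (43.2%) were higher and 181 (45.7%) lower, with a median of -0.02. The shares over all tested genes were not recomputed without chromosome 10, whose genes were mostly lower. This count therefore has no like reference here. Genes with a summit within 1 kb of the 5′ end included 69 higher (38.3%) and 95 lower (52.8%) of 180 tested. Genes at the weak P6D4-only peaks were 131 higher (53.9%) and 92 lower (37.9%) of 243, with a median of 0.25. Beside both stand the 45.3% higher and 43.1% lower of tested protein-coding genes outside chromosome 15. Neither count was repeated without chromosome 10.

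**Figure D4:**
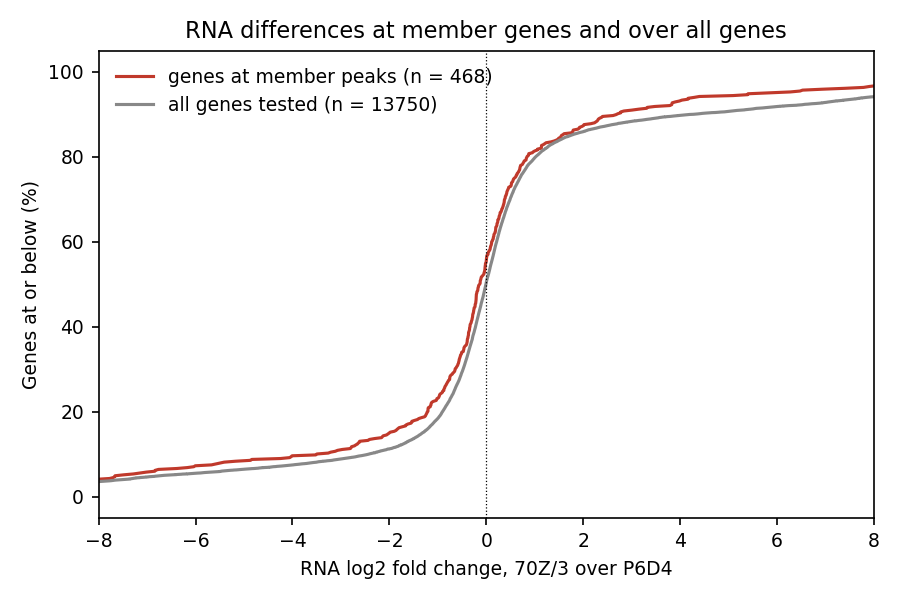
Cumulative percentage of genes (vertical) against the RNA log2 fold change, 70Z/3 over P6D4 (horizontal, shown from -8 to 8), for the 468 genes at these peaks (red) and all 13750 genes tested (grey). The red curve lies left of the grey one near 0, with medians of -0.13 and -0.01.

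The 8 highest folds were at Zfp324, Mettl21e, Tbc1d23, Tmprss2, Ece1, Ifnl3, Ifnar2 and Notch3. The peak of Zfp324, a zinc finger protein gene, had a fold of 14.9 and a summit 695 bp inside the 5′ end (chr7:12966349-12966759). Zfp324 RNA was 11.7, 11.6 and 12.5 CPM in 70Z/3, against 14.5, 15.8 and 16.6 CPM in P6D4, without overlap (log2 fold change -0.39 ± 0.07 SE, edgeR adjusted p = 0.000116). Tbc1d23, a TBC-domain protein of endosome-to-Golgi transport whose promoter is printed above, had 37.9, 36.8 and 34.8 CPM in 70Z/3, against 44.2, 46.0 and 45.4 CPM in P6D4 (log2 fold change -0.31 ± 0.04 SE, edgeR adjusted p = 1.84e-05). These are small differences between genes that both lines express.

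Tmprss2, which encodes a membrane serine protease, had its summit 671 bp outside the annotated 5′ boundary and far from the start site in the promoter table. Its RNA was 0, 0.0207 and 0 CPM in 70Z/3, a total of 1 count, against 4.61, 4.12 and 3.71 CPM in P6D4, and the ratio of summed counts per depth, P6D4 over 70Z/3, was 585 (95% counting interval 105 to 23129.8, edgeR adjusted p = 2.55e-11). Ece1, the endothelin-converting enzyme, had its summit 23 bp downstream of the start in the printed window. It had 0.0213, 0.0622 and 0.0444 CPM in 70Z/3, against 44.8, 46.3 and 48.7 CPM in P6D4 (log2 fold change -10.01 ± 0.13 SE, edgeR adjusted p = 1.57e-16). The lines did not overlap.

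Ifnar2, a chain of the type I interferon receptor, had 36.6, 37.3 and 38.8 CPM in 70Z/3, against 40.0, 44.8 and 47.1 CPM in P6D4 (log2 fold change -0.23 ± 0.06 SE, edgeR adjusted p = 0.00209). Ifnl3, a lambda interferon gene, and Mettl21e, a methyltransferase-like gene, had no count in any of the 6 libraries. Notch3, a Notch receptor of immature thymocytes, had 0.149, 0.394 and 0.289 CPM in 70Z/3, against 395, 381 and 383 CPM in P6D4 (log2 fold change -10.43 ± 0.09 SE, edgeR adjusted p = 3.9e-18). Of these 8 genes, 6 were tested and 6 were lower in 70Z/3, where 43.3% of all genes tested were lower.

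The largest RNA rises in 70Z/3 among these genes were at Hlx, Alpk1, Epha2, Uaca, Lipo3 and Slc39a14. Hlx, a homeobox transcription factor gene, had 19.4, 22.2 and 20.6 CPM in 70Z/3 and no count in P6D4, so it was at least 361-fold higher against a floor of 3 counts per library (edgeR adjusted p = 4.53e-13). Alpk1, an alpha-kinase of innate sensing, had 53.5, 48.8 and 46.7 CPM in 70Z/3, against 0, 0 and 0.0205 CPM in P6D4, a ratio of 7795 (95% counting interval 1399 to 307922, edgeR adjusted p = 5.53e-16). Epha2, an ephrin receptor kinase, had 48.7, 46.9 and 53.0 CPM in 70Z/3, against 0, 0 and 0.0205 CPM in P6D4, a ratio of 7761 (1393 to 306597, edgeR adjusted p = 4.09e-16). In each of these 3 genes 70Z/3 was high in all libraries and P6D4 held at most 1 count.

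Uaca, which encodes a coiled-coil protein linked to apoptosis, had 63.9, 64.8 and 60.6 CPM in 70Z/3, against 0.0361, 0.0190 and 0 CPM in P6D4 (ratio 3303, counting interval 1129.7 to 16017, edgeR adjusted p = 7.25e-17). Lipo3, a lipase family gene with its summit 4552 bp outside the 5′ end, had 41.9, 43.9 and 41.4 CPM in 70Z/3, against 0.0180, 0 and 0.0205 CPM in P6D4 (ratio 3331, counting interval 922 to 27511, edgeR adjusted p = 1.76e-16). Slc39a14, a zinc and manganese importer, had 50.0, 55.9 and 54.7 CPM in 70Z/3, against 0.0721, 0 and 0.0410 CPM in P6D4 (log2 fold change 10.36 ± 0.16 SE, edgeR adjusted p = 9.07e-16). The peaks at these 6 genes had folds of 4.85 to 8.49.

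The largest falls were at Syde1, Tmem45a, Idh2, Pdia5, Notch3 and Tle5. Syde1 had no count in 70Z/3, against 16.4, 13.8 and 12.8 CPM in P6D4, so it was at least 223-fold lower in 70Z/3 against a floor of 3 counts per library (edgeR adjusted p = 1.35e-11). Tmem45a, a transmembrane protein gene, had 0.0213, 0.0829 and 0.0222 CPM in 70Z/3, against 107, 115 and 138 CPM in P6D4 (log2 fold change -11.37 ± 0.20 SE, edgeR adjusted p = 2.99e-15). Idh2, the mitochondrial NADP-dependent isocitrate dehydrogenase, had 0.149, 0.186 and 0.0222 CPM in 70Z/3, against 207, 207 and 203 CPM in P6D4 (log2 fold change -10.70 ± 0.11 SE, edgeR adjusted p = 1.43e-17). The Idh2 summit lay 3328 bp inside the outer gene boundary but 70 bp downstream of the nearest listed start site.

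Pdia5, a protein disulfide isomerase of the endoplasmic reticulum, had 0.0426, 0.0207 and 0 CPM in 70Z/3, against 38.5, 38.9 and 41.0 CPM in P6D4 (P6D4 over 70Z/3 ratio 1841, counting interval 629.8 to 8932, edgeR adjusted p = 5.26e-16). Tle5, a short Groucho-family corepressor, had 0.149, 0.394 and 0.200 CPM in 70Z/3, against 332, 345 and 358 CPM in P6D4 (log2 fold change -10.42 ± 0.10 SE, edgeR adjusted p = 8.26e-18). Of the other thymocyte markers with a peak, Lat, the adaptor of T cell receptor signalling, had 14.6, 16.0 and 15.6 CPM in 70Z/3, against 145, 147 and 136 CPM in P6D4 (log2 fold change -3.21 ± 0.05 SE, edgeR adjusted p = 5.09e-16). Ptcra, the pre-T cell receptor alpha chain, had 0, 0.0622 and 0 CPM in 70Z/3, against 30.1, 31.6 and 29.9 CPM in P6D4 (P6D4 over 70Z/3 ratio 1428, counting interval 488 to 6929, edgeR adjusted p = 6.96e-15). Elane, neutrophil elastase, had 2 counts in 70Z/3 and 3 in P6D4, so no difference could be detected at this depth.

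**Figure D5:**
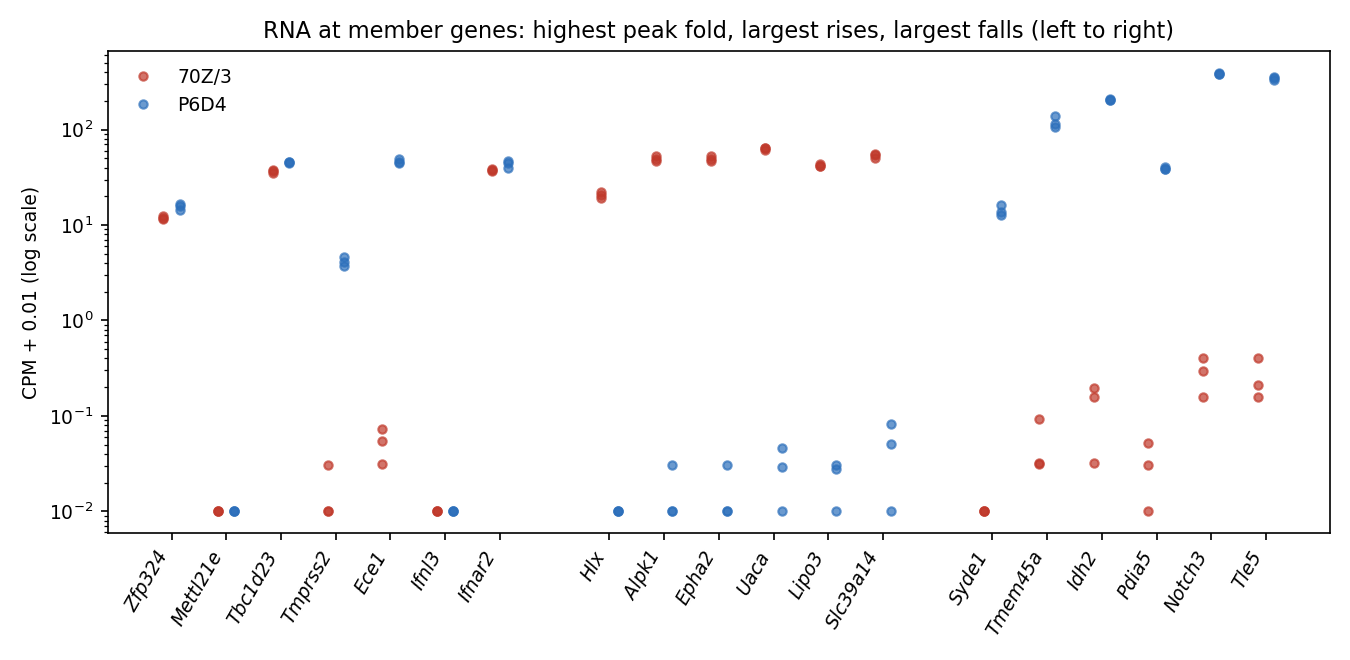
CPM plus 0.01 on a log axis in each of 3 libraries of 70Z/3 (red, left) and P6D4 (blue, right) for the genes with the highest peak folds, the largest rises and the largest falls; Notch3 belongs to both the first and the last set and is drawn in the last. Genes without a count sit at 0.01.

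By class, 119 of the 727 genes fell into any of 24 symbol-based gene classes. Zinc finger factors numbered 17 (2.34%, against 2.29% of all coding genes). Of their 13 tested members, 2 were higher in 70Z/3 and 8 lower. This and the class counts that follow stand beside 43.2% of all genes tested that were higher, 43.3% that were lower and 86.5% called in either direction, so a class in which most members differ is the usual case. Klf6, a Krüppel-like factor, had 26.2, 21.7 and 21.2 CPM in 70Z/3, against 221, 281 and 278 CPM in P6D4 (log2 fold change -3.50 ± 0.10 SE, edgeR adjusted p = 3.61e-13). Zfp62 was among the 2 higher, at 0.35 ± 0.05 SE on the log2 scale (edgeR adjusted p = 1.53e-05). Olfactory and vomeronasal receptors numbered 20 (2.75%, against 6.97%), and 0 of them had enough counts to be tested. No cytosolic or mitochondrial ribosomal protein gene was present. All coding genes hold 84 cytosolic (0.398%) and 77 mitochondrial ones (0.365%), which are small shares.

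Cell-cycle kinases and their partners numbered 6 (0.825%, against 0.469% of all coding genes), of which 5 were tested, with 1 higher and 4 lower. Cdk1, the mitotic kinase, had 168, 174 and 172 CPM in 70Z/3, against 372, 385 and 387 CPM in P6D4 (log2 fold change -1.16 ± 0.03 SE, edgeR adjusted p = 5e-13). Its summit lay 237 bp downstream of the start on chromosome 10. Cdk11b, a kinase acting in transcription and splicing, differed less, with means of 114 ± 1.06 CPM over the 70Z/3 libraries and 125 ± 2.10 CPM over the P6D4 libraries (SD, n = 3 each) and an edgeR adjusted p of 0.00277. Among replication and repair genes, Mcm10, a replication initiation factor, was 0.15 higher on the log2 scale (edgeR adjusted p = 0.00361), whereas Mcm3ap, the MCM3-associated mRNA export protein, stood at -0.60 (edgeR adjusted p = 1.26e-09).

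Proteasome genes numbered 4 (0.550%, against 0.242% of all coding genes), with 3 higher and 1 lower. The count is small, 24 classes were looked at, and no excess was tested. Psmc4, an ATPase of the 19S particle, had 161, 170 and 166 CPM in 70Z/3, against 148, 136 and 144 CPM in P6D4 (log2 fold change 0.21 ± 0.04 SE, edgeR adjusted p = 0.000149), and Psmc3 of the same ring stood 0.28 higher on the log2 scale (edgeR adjusted p = 1.68e-05). Both autophagy genes were higher in 70Z/3. Uvrag, a subunit of the Beclin 1 complex, had a mean of 139 ± 3.31 CPM over the 70Z/3 libraries and of 61.2 ± 0.882 CPM over the P6D4 libraries (SD, n = 3 each), a difference of 1.18 on the log2 scale (edgeR adjusted p = 7.73e-13). Atg10, the E2-like enzyme of Atg12 conjugation, had a mean of 11.7 ± 0.470 CPM over the 70Z/3 libraries and of 5.32 ± 0.158 CPM over the P6D4 libraries (SD, n = 3 each), a difference of 1.14 on the log2 scale (edgeR adjusted p = 4.28e-09).

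The 3 CD antigen genes were all tested, with 2 higher and 1 lower. Cd37, a B cell tetraspanin, had a mean of 285 ± 6.51 CPM over the 70Z/3 libraries and of 54.7 ± 3.39 CPM over the P6D4 libraries (SD, n = 3 each; log2 fold change 2.38, edgeR adjusted p = 5.71e-15). Cd5, a scavenger receptor family protein of T cells and some B cells, had a mean of 20.8 ± 0.586 CPM over the 70Z/3 libraries and of 0.979 ± 0.057 CPM over the P6D4 libraries (SD, n = 3 each; log2 fold change 4.4, edgeR adjusted p = 1.05e-14). The third, Cd209c, a C-type lectin gene, had 0.234, 0.249 and 0.466 CPM in 70Z/3, against 1.59, 0.892 and 1.31 CPM in P6D4 (log2 fold change -2.00 ± 0.29 SE, edgeR adjusted p = 2.27e-05). The 3 tested cytokine and receptor genes were lower, Il15ra, the interleukin 15 receptor alpha chain, at -1.84 on the log2 scale (edgeR adjusted p = 2.17e-13). Of the 4 histone genes only H3f3b, encoding the replacement histone H3.3, was tested, with means of 433 ± 3.32 CPM over the 70Z/3 libraries and 1529 ± 49.3 CPM over the P6D4 libraries (SD, n = 3 each; log2 fold change -1.82, edgeR adjusted p = 4.96e-15). Both chaperone genes were lower, Hsp90ab1 (HSP90 beta) at -0.35 on the log2 scale (edgeR adjusted p = 2.06e-07) and Hspa12b at -3.26 (edgeR adjusted p = 1.01e-05).

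The solute carriers numbered 10 (1.38%, against 1.70% of all coding genes), with 4 of 7 tested higher, Slc39a14 above among them, and 3 lower. Slc25a3, the mitochondrial phosphate carrier, was lower, at -0.84 on the log2 scale (edgeR adjusted p = 2.83e-11). Slc2a1, the glucose transporter GLUT1, had 235, 230 and 244 CPM in 70Z/3, against 187, 200.9 and 242 CPM in P6D4, so that the lines overlapped (log2 fold change 0.17 ± 0.07 SE, edgeR adjusted p = 0.035), and over the alternative settings the adjusted p ran from 2.86e-05 to 0.143. Vesicle transport genes had 4 of 7 higher and 2 lower, led by Ap1s1, a subunit of the clathrin adaptor AP-1 (log2 fold change 1.89, edgeR adjusted p = 4.25e-14). Ubiquitin system genes numbered 7 (0.963%, against 1.63% of all coding genes), with 2 higher and 3 lower. Among them Ube2g1, a ubiquitin-conjugating enzyme, was lower, at -0.11 on the log2 scale (edgeR adjusted p = 0.00963, and 0.0515 without the third 70Z/3 library). Of the named genes, 3 that both lines express did not pass: Srsf11, a splicing factor (edgeR adjusted p = 0.993), Eif3j1, a translation initiation factor subunit (0.06, edgeR adjusted p = 0.274), and Atp5a1, the ATP synthase alpha subunit (-0.05, edgeR adjusted p = 0.212). A p that misses the threshold does not show equal levels.

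Among the other classes, the kinesin, dynein and tubulin genes had 3 of 4 tested members higher and 1 lower. Dnah17, an axonemal dynein heavy chain, had 15.3, 17.4 and 17.7 CPM in 70Z/3, against 1.21, 0.911 and 1.05 CPM in P6D4 (log2 fold change 3.99 ± 0.11 SE, edgeR adjusted p = 4.12e-13). Kif5a, a kinesin heavy chain, was lower, at -0.57 ± 0.10 SE on the log2 scale (edgeR adjusted p = 0.000109). RNA polymerase and Mediator genes had 1 of 3 higher and 2 lower, the Mediator subunits Med21 at 0.24 (edgeR adjusted p = 3.78e-05) and Med27 at -0.46 (edgeR adjusted p = 1.65e-06) on the log2 scale. Genes with Tmem symbols numbered 6 (0.825%, against 1.09% of all coding genes). Of 5 tested, 4 were higher and 1 lower, the lower one being Tmem45a above. Tmem94 stood at 0.23 (edgeR adjusted p = 0.000116) and Tmem63a at 0.19 (edgeR adjusted p = 0.00172). Respiratory chain genes had 1 of 5 higher and 3 lower. Splicing factors had 1 of 3 higher and 1 lower, the higher one being Lsm5 at 0.70 (edgeR adjusted p = 3.3e-08). Of 2 translation factors tested, Eif3b was higher at 0.51 (edgeR adjusted p = 1.11e-07) and Eif3j1 did not pass. Usp15, a deubiquitinase, was among the higher ubiquitin system genes at 0.29 (edgeR adjusted p = 7.34e-06), and Snx30, a sorting nexin, among the higher vesicle transport genes at 0.40 (edgeR adjusted p = 3.01e-07).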

How the data were processed

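ChIP-seq and RNA-seq of 70Z/3 and P6D4 cells were analysed as deposited. Per the submitters' processing notes, TopHat2 2.0.10, Bowtie2 2.10, HTSeq, SAMtools, bedtools and MACS 2.0.10.20120913 were used. Per the file headers, the authors called Miz1 peaks with MACS at a q cutoff of 0.01, on 1 library per line against its control. The deposited lists give pileup as a signal, fold enrichment as a ratio, and p as −log10 p-values. The deposited RNA tables hold raw counts per gene. RNA libraries were made with TruSeq Stranded mRNA per the labels' protocols. Whether counting used strand is not stated, which leaves genes that overlap or run antisense uncertain. Between 14.5 and 16.0% of reads, in the row for reads of no feature, were left out.

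Peaks were assigned to the nearest end of a protein-coding gene in the RefSeq table of GRCm38.p6, the strand coming from the RefSeq promoter table (17492 of 21887 genes). The bases around summits were not read; motifs were searched in RefSeq promoter windows instead. Counts were tested with edgeR 4.0.16 (filterByExpr, TMM, quasi-likelihood test, Benjamini-Hochberg adjustment over 13750 genes), with DESeq2 1.42.0, RLE scaling, other filters, left-out replicates and a replicate block as alternatives. CPM uses TMM library sizes. An SE is the fold change divided by the square root of its F statistic and understates the counting error of genes with few counts. A fitted log2 fold change of a gene near 0 in a line depends on the prior count. edgeR was also run on simulated counts in which few genes differed between the lines. Most genes differ in these data, so that run does not measure the errors of the calls made here. Intervals and floors cover counting error only.

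Genes were named by rule: the 8 highest peak folds, the 6 largest called rises and 6 largest falls that reached 10 CPM in either line without overlap, the 2 most abundant members of each class, neighbours of the thresholds, and line markers. The peaks, lists and rule were chosen with earlier results of these data known.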

Additional observations from a re-analysis of the deposited data

How the results depend on the processing

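With the fitted alternatives (DESeq2, RLE scaling, no filter on low counts), the numbers of genes higher and lower in 70Z/3 stayed within 1.5 times of 186 and 233, and of the 419 calls 411 kept their direction and threshold with DESeq2 and 417 with RLE, none changing sign. RLE moved the median of all genes by 0.02 on the log2 scale. Leaving out 1 RNA library at a time gave 181 to 188 higher and 228 to 238 lower, 11699 to 11981 genes called in all, and a 70Z/3 detection share of 58.6 to 59.2%. Tests against a 2-fold difference gave 84 higher, 104 lower and 4838 genes called in all, by their construction. A window of 1 kb left 359 peaks, with 93 genes higher (38.9%) and 121 lower (50.6%) of 239 tested, and a detection share of 65.6%. Over protein-coding genes outside chromosome 15, 45.3% of those tested were higher, 43.1% lower, and 48.8% of those matched were detected in 70Z/3. With a window of 2 kb, 70.1% of summits lay within 1 kb, since fewer distant peaks remain. With chromosome 15 kept, 198 of 557 tested genes were higher (35.5%) and 307 lower (55.1%). Of the 452 genes tested on chromosome 15 as a whole, 15.9% were higher and 80.8% lower. Leaving out chromosome 10, chosen after the data were seen, gave 171 higher (43.2%) and 181 lower (45.7%), with no reference recomputed without that chromosome. A window of 1 kb cannot give a share within 1 kb.

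The replicate numbers do not pair the libraries: deviations of libraries with the same number correlated at -0.06, -0.05 and 0.01, and 0 of the 70Z/3 libraries correlated best with their own number. With the numbers as a replicate block, 185 genes were higher, 233 lower and 11714 called in all. The ChIP comparison is limited by 1 library per line and by unequal depth: the P6D4 library kept fewer tags, although its list is the longer (10462 peaks in 70Z/3, 21629 in P6D4).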
